A study of Homo sapiens and Mus musculus with 61 samples.

Results

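The interval described here covers 35 kb of human chromosome 11 (hg19), from the embryonic globin gene HBE1 through the 5 DNase I hypersensitive sites HS1 to HS5 of the beta-globin locus control region. Its members are the regions of 300 bp, called windows below, whose centre lies in that interval in any of the 17 deposited tables. There are 18 such windows of 143198 listed in all tables together, all 18 with different coordinates. They come from 12 tables, and 5 tables (sgHBB, sgHBB-sg2, sgHBG-sg2, sgHBD-1kb and sg3'HS1) list no window there.

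The study recovered chromatin bound by a biotinylated, catalytically inactive Cas9 (dCas9) from K562, a human leukaemia cell line of erythroid character that expresses embryonic and fetal globin, and sequenced the DNA by CAPTURE-ChIP-seq. Every library used here, controls included, carries the tagged dCas9 and 1 kind of single guide RNA or a pool. A guide aimed at no human sequence, sgGal4, is the control in 4 libraries. The groups used here are the guides first designed against each site (sgHS1 with 2 libraries, sgHS2 with 5, sgHS3 with 3, sgHS4 with 2, sgHS5 with 3), a second guide to each site (sgHS1-sg2, sgHS4-sg2 and sgHS5-sg2 with 2 libraries, sgHS2-sg2 and sgHS3-sg2 with 1), and the pool sgHS1-5, which targets the 5 sites together, with 6. The 6 guides to HBB, HBG, HBD-1kb and 3'HS1 serve to ask whether a guide aimed elsewhere in the cluster also leaves a window here. Of the 61 samples, 46 have columns in these tables and 15 were not analysed here. Replicates are numbered in the labels, which do not say that they are separate cultures, so a p-value here reflects how libraries vary among themselves, possibly for technical reasons alone.

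HBE1 encodes epsilon-globin, the beta-type chain of embryonic haemoglobin, and is the globin gene closest to the locus control region. The region lies upstream of HBE1 and acts over long distances on the globin genes of the cluster through erythroid factors. HS2 is its classical enhancer and holds paired sites for NF-E2 and other AP-1-like factors; HS1 to HS4 are rich in GATA1 and CACCC-box sites, the latter bound by KLF1 and related factors; HS5 is known for binding CTCF. In a CAPTURE experiment the guide sets where dCas9 binds, so a window at a guide's own site measures recovery of the bait itself.

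The sequences of the main windows are shown because the sites can be told apart, and the windows of a first and a second guide compared, by the motifs they hold. They are the plus strand of GRCh37, which has the coordinates of hg19, 5′ to 3′. HBE1 itself is transcribed from the minus strand. Capitals mark GATAA (the core read by GATA factors), TGANTCA (NF-E2 and AP-1), CACCC and a CTCF core motif, each searched on both strands. The second-guide windows of HS2 and HS3 are given because they share 0 bp with those of the first guides.
HS2, sgHS2, chr11:5301954-5302253: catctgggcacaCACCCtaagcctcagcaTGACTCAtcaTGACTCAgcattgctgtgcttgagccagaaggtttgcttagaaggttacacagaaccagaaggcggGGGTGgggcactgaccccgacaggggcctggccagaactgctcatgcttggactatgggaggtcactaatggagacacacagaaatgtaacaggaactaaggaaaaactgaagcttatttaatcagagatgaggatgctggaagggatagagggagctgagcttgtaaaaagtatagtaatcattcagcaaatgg
HS2, sgHS2-sg2, chr11:5301405-5301704: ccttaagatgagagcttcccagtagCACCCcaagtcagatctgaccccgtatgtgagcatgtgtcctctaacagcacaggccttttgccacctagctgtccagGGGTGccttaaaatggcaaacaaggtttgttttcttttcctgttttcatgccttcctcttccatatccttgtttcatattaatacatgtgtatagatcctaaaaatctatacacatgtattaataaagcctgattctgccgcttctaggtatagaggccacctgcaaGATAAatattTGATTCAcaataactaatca
HS3, sgHS3, chr11:5305767-5306066: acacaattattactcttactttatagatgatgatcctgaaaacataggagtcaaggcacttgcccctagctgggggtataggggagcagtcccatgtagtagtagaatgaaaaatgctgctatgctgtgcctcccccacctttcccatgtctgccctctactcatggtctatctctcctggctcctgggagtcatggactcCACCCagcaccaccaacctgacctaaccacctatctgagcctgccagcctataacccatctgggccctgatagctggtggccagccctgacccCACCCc
HS3, sgHS3-sg2, chr11:5306107-5306406: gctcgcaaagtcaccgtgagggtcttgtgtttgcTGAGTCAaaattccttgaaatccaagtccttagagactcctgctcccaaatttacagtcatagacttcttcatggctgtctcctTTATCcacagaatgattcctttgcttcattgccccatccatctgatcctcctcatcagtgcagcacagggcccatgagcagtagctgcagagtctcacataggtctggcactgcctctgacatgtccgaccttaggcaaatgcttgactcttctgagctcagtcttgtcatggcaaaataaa
HS4, sgHS4, chr11:5309425-5309724: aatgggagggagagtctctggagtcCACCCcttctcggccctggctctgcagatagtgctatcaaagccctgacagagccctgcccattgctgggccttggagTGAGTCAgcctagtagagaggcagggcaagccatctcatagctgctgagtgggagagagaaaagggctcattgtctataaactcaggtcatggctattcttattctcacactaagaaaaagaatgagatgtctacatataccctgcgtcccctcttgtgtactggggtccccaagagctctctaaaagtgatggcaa
HS5, sgHS5, chr11:5312418-5312717: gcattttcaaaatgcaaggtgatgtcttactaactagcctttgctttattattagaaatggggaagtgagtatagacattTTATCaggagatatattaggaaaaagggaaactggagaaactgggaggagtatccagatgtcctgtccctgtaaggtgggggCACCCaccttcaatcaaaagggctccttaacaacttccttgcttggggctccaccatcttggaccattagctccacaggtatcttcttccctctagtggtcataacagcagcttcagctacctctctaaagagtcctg
beyond the 3′ end of HBE1, sgHS5, chr11:5288429-5288728: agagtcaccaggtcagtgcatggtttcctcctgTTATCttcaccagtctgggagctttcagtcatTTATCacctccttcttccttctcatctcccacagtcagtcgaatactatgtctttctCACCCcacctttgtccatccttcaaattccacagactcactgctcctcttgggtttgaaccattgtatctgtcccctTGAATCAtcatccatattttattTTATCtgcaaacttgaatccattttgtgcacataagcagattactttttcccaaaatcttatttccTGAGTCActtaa

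The first-guide window of HS2 held TGACTCA at bases 30 to 36 and again at bases 40 to 46, the tandem arrangement for which HS2 is known, with CACCC on either side. HS4 held TGAGTCA at bases 104 to 110, and the second-guide window of HS3 held TGAGTCA at bases 35 to 41 together with TTATC, the reverse complement of GATAA, at bases 119 to 123. The window beyond HBE1 held 3 copies of TTATC and a match to TGANTCA at bases 200 to 206 and at 289 to 295. Over the 15 windows outside HS1, which overlap between tables, TGANTCA was present in 9, GATAA in 6 and CACCC in 14. The E-box CANNTG (not capitalised) was present in 11 and an exact match to the CTCF core in 0. The 6 windows with GATAA were those of sgHS2-sg2, sgHS3-sg2 and sgHS5-sg2, the sgHS5 and pool windows of HS5, and the window beyond HBE1. No first-guide or pool window of HS2, HS3 or HS4 held GATAA, nor did the sgHS4-sg2 window. The motif counts cover only the forms searched. A 0 for the strict CTCF pattern does not show that a CTCF site is absent. In the sgHS5 window of HS5, tccctctagtgg, read on the minus strand, departs from the pattern in its last base only. Of all 91133 distinct windows in the tables, 9.78% held TGANTCA, 26.9% GATAA, 60.0% CACCC, 72.4% CANNTG and 14.6% the CTCF core. GC content was 48.7% at HS2, 53.0% at HS3, 51.3% at HS4, 44.3% at HS5 and 41.3% beyond HBE1. The median over all windows was 57.7%, with quartiles of 47.7% and 66.7%, so 2 of these 5 windows lay under the lower quartile.

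The annotation (GENCODE 44 lifted to GRCh37) places the main HBE1 transcript at 5289575 to 5291175 on chromosome 11, 1601 bp on the minus strand. No window in any of the 17 tables lay within 1000 bp of its start at 5291175, so the level at the HBE1 promoter is not given by these tables. Of the 3 HBE1 transcript models, 2 start beyond HS5, the longest at 5526882. All windows at HS1 to HS5 therefore fall in introns of long models of HBE1 and of its neighbour HBG2, a fetal gamma-globin gene, and overlap no exon. From the HBE1 start, the first-guide windows were centred 5.83 kb upstream at HS1, 10.9 kb at HS2, 14.7 kb at HS3, 18.4 kb at HS4 and 21.4 kb at HS5.

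The first question was in which tables each site appears at all. All 15 combinations of a table and a site that its guide or pool targets listed a window there. Among the 70 combinations of a table and a site that is not targeted, 2 listed a window (HS2 for sgHS4, HS5 for sgHBG) and 68 listed none. The remaining window, centred at -2.60 kb from the HBE1 start and beginning 847 bp past the end of the gene, was listed for sgHS5 alone. How the authors chose the regions of a table is not given in the sources used here, so a listed target is not independent evidence of recovery and an unlisted window is not a measured 0. The authors' deposited tables tag 15 of the 18 windows as on-target and 0 as off-target, and leave 3 as others.

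**Figure D1:**
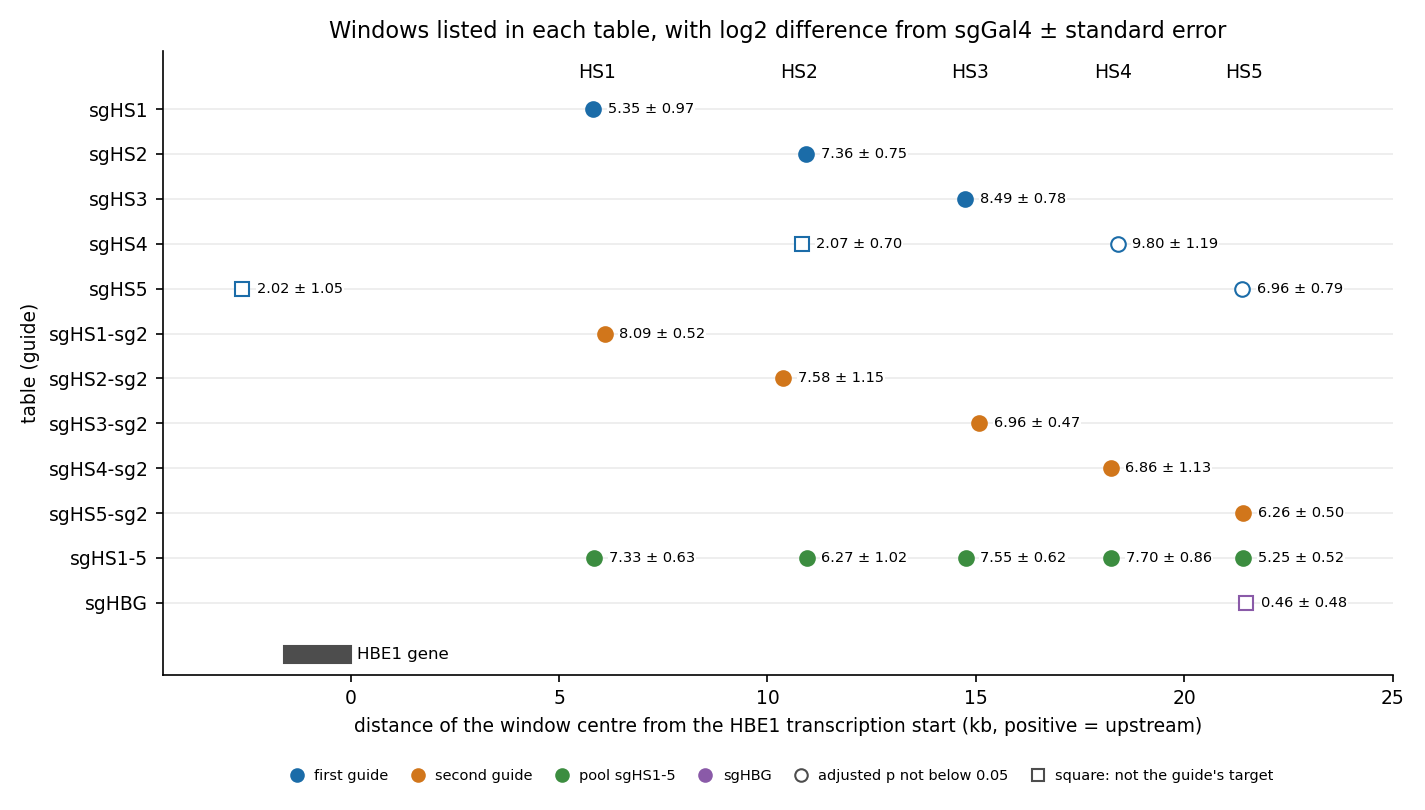
Windows listed in each of the 12 tables, placed by the distance of their centre from the HBE1 transcription start (kb), with the log2 difference between guide and sgGal4 libraries and its standard error beside each symbol. Colours give the class of guide, open symbols did not reach an adjusted p below 0.05, and squares are windows that the guide does not target. The 15 target windows stand at 5.25 to 9.80 and the 3 others at 0.46 to 2.07.

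Values are given in 3 ways. The deposited level is a log2 value normalised within its table, and its difference between guide and sgGal4 libraries, with a standard error (SE), was tested with limma over all regions of the table. A window was called higher at an adjusted p below 0.05. Reads were worked out from the steps of the log2 levels, and a share is the percentage of the reads in all listed regions of that table and library, not of the whole library. Of the controls, sgGal4 replicates 1 and 2 were the deep ones, at 41128 to 169968 reads per table, and replicates 3 and 4 the shallow ones, at 6499 to 18647. In the shallow libraries a window with 0 to 3 reads sits at a higher log2 level than in the deep ones.

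At HS1 the first guide had the highest ratio between the shares of its libraries among the single guides. sgHS1 held 83 reads in replicate 1 and 861 in replicate 2, against 1, 2, 1 and 2 reads in the 4 sgGal4 libraries. Both libraries stood above every control, but replicate 2 gave 7.20% of its listed reads to the window and replicate 1 gave 0.333%, 21.7 times less. The log2 difference was 5.35 (SE 0.97, n = 2), the highest of 4217 regions, with an adjusted p of 0.0274. Of these regions 0.0474% were called higher, and their median difference was -0.94. The call was lost whichever of the 4 sgGal4 libraries was left out (adjusted p = 0.0501 to 0.0799).

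The second HS1 guide, whose window overlaps that of the first by 32 bp, was more even. sgHS1-sg2 held 2389 and 1010 reads, or 2.05% and 1.46%, against 2, 5, 0 and 0 in sgGal4. Its libraries lay within 1.41 times of each other, and the log2 difference was 8.09 (SE 0.52, n = 2; adjusted p = 0.000424), rank 1 of 9237 regions, of which 0.530% were called higher. Without its replicate 1 the adjusted p was 0.0641. The pool held 1265, 2359, 129, 86, 1620 and 1929 reads at HS1 in replicates 1 to 6, against 1, 2, 1 and 1 in sgGal4. Pool replicates 3 and 4, low by reads, were also the smallest libraries, with 20918 and 20447 listed reads, and the shares ran from 0.421% to 1.91%. The pool stood 7.33 above sgGal4 on the log2 scale (SE 0.63, n = 6; adjusted p = 7.31e-05), rank 3 of 16890 regions. In all, 9 regions of the pool, 0.0533%, were called higher, and the 5 hypersensitive sites were among them.

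HS2 had the most libraries for a single guide. sgHS2 held 1150, 147, 643, 109 and 186 reads in replicates 1 to 5, against 0, 5, 0 and 0 in sgGal4. The libraries fell apart by share, with 3.16%, 2.06% and 5.68% in the first 3 and 0.443% and 0.423% in the last 2, and no guide library overlapped a control. Guide and control differed by 7.36 on the log2 scale (SE 0.75, n = 5; adjusted p = 7.79e-05), and this was the single region called higher of 5217 (0.0192%). It kept an adjusted p below 0.05 in all 19 alternative settings run for this window. Replicates 4 and 5 differed by little more than counting noise (chi-square per degree of freedom 1.064) over 2978 regions with enough reads in the pair. The other pairs had 1.67 to 13.5. The value of 13.5 was that of replicates 2 and 3 and rests on 118 regions.

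The single library of sgHS2-sg2 held 641 reads at HS2, 0.599% of its listed reads (95% Clopper-Pearson interval 0.553 to 0.646), against 0, 1, 0 and 0 in sgGal4. Its window began 549 bp closer to HBE1 and did not overlap that of sgHS2. Its log2 difference was 7.58 (SE 1.15, n = 1; adjusted p = 0.0288), rank 1 of 8573 regions with 1.13% called higher, where the fit takes the lone library to vary like the sgGal4 libraries. That call was also lost whichever of the sgGal4 libraries was left out (adjusted p = 0.0589 to 0.0794).

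In the pool, HS2 was the least even of the 5 sites. Reads in replicates 1 to 6 were 176, 359, 9, 16, 3058 and 5342, against 0, 5, 0 and 0 in sgGal4. Replicates 5 and 6 gave 1.45% and 5.28% of their listed reads to HS2 and the other 4 gave 0.0430% to 0.103%. The highest share was 123 times the lowest, whereas that ratio was 4.53 at HS1, 8.63 at HS3, 3.46 at HS4 and 7.46 at HS5. For the pool as a whole the log2 difference was 6.27 (SE 1.02, n = 6; adjusted p = 0.0387), rank 4. It did not stay below 0.05 without pool replicate 1, 2, 4 or 5 (adjusted p = 0.0934, 0.09, 0.0557 and 0.112) or sgGal4 replicate 1 or 2 (0.205 and 0.102).

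**Figure D2:**
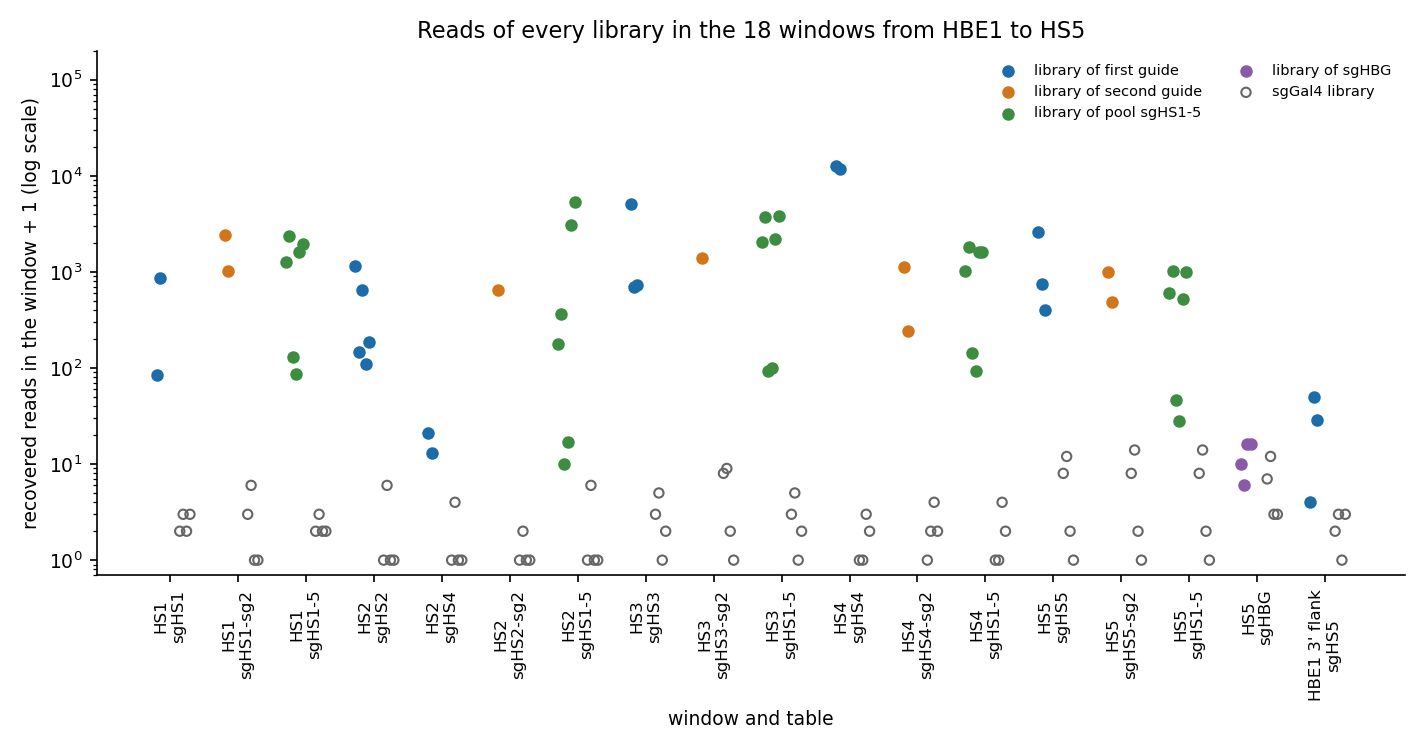
Recovered reads plus 1 (log axis) of every library in the 18 windows; filled points are guide or pool libraries and open points the 4 sgGal4 libraries. In the 15 target windows each guide library lies above each sgGal4 library, with guide reads from 9 to 12540 and sgGal4 reads from 0 to 13.

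HS3 gave high numbers with each kind of guide. sgHS3 held 5122, 697 and 723 reads in replicates 1 to 3, against 2, 4, 0 and 1 in sgGal4. Replicate 1 had a share of 5.77%, and replicates 2 and 3 had 1.74% and 1.49%. The log2 difference was 8.49 (SE 0.78, n = 3; adjusted p = 0.00251), rank 1 of 7777 regions. Of these 6.44% were called higher, against at most 1.13% for the other guides to the 5 sites.

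The window of sgHS3-sg2 began 340 bp further from HBE1, without overlap, and its library held 1379 reads, 2.15% of listed reads (2.04 to 2.26), against 7, 8, 1 and 0 in sgGal4. Its log2 difference was 6.96 (SE 0.47, n = 1; adjusted p = 0.00306), rank 1 of 6296 regions with 1.13% called higher. Here too the spread is that of the sgGal4 libraries alone, so the adjusted p, below 0.05 in all 12 alternative settings, says nothing of how repeat libraries of the guide would vary. The control reads were higher here than at the sgHS3 window, 16 in sum (95% Poisson interval 9.15 to 26.0) against 7 (2.81 to 14.4), and the intervals overlap. The pool held 2045, 3741, 92, 99, 2186 and 3841 reads at HS3, against 2, 4, 0 and 1. Every pool library stood above the controls, with shares of 0.440% to 3.80%, and the log2 difference was 7.55 (SE 0.62, n = 6; adjusted p = 7.31e-05), rank 2.

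HS4 had the highest share of any window in the interval. sgHS4 held 12540 reads in replicate 1 and 11786 in replicate 2, or 5.62% and 18.6% of listed reads, against 0, 0, 2 and 1 in sgGal4. The log2 difference of 9.80 (SE 1.19, n = 2) had rank 1 among 10734 regions, but its adjusted p was 0.0568 and it was not called. The single region called higher in that table, 0.00932% of all, was another one. HS4 passed in 8 of 15 alternative settings, and its adjusted p ran from 2.32e-19 to 0.834 over them. It was 0.0153 without replicate 2 and 0.834 without replicate 1, where the 1 library left is taken to vary like sgGal4, and 0.563 with sgGal4 replicates 3 and 4 as the only controls.

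For sgHS4-sg2 the reads were 1128 and 240, or 2.15% and 0.698%, against 0, 1, 3 and 1 in sgGal4. Its window began 167 bp closer to HBE1 and shared 133 bp with that of sgHS4. The guide stood 6.86 above sgGal4 on the log2 scale (SE 1.13, n = 2; adjusted p = 0.00578), rank 1 of 6242 regions with 0.529% called higher, and the adjusted p was 0.0728 without its replicate 1. The pool held 1011, 1821, 142, 93, 1613 and 1594 reads at HS4 against 0, 0, 3 and 1, and its 6 shares, 0.455% to 1.58%, were the most even of the 5 sites. At HS4 the pool differed from sgGal4 by 7.70 on the log2 scale (SE 0.86, n = 6; adjusted p = 0.00109), rank 1 of the pool table.

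HS5 lies farthest from HBE1. sgHS5 held 2627, 745 and 399 reads in replicates 1 to 3, against 7, 11, 1 and 0 in sgGal4. Replicate 1 had 1.66% of its listed reads there and replicates 2 and 3, which held more listed reads (432553 and 245557 against 158766), had 0.172% and 0.162%. Over 15396 regions with enough reads, replicates 2 and 3 differed by little more than counting noise (chi-square per degree of freedom 1.043). Replicate 1 differed from both (7.76 and 5.88). The log2 difference of 6.96 (SE 0.79, n = 3) had rank 5 of 16655 regions with an adjusted p of 0.0582, and was not called. For sgHS5 limma called 0 regions higher (0%), while 1137 had an unadjusted p below 0.05 in that direction. Its adjusted p was 0.0108 without replicate 1, 0.315 without replicate 2 and 0.278 without replicate 3. The fit without replicate 1 rests on the near-identical replicates 2 and 3; with these averaged and counted as 1 library, a setting chosen after seeing the data, the adjusted p was 0.282.

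The second HS5 guide gave a window 16 bp away from the first, with 284 bp shared. sgHS5-sg2 held 991 and 489 reads, or 1.65% and 1.22%, against 7, 13, 1 and 0 in sgGal4. Both libraries were close to the share of sgHS5 replicate 1, and the log2 difference was 6.26 (SE 0.50, n = 2; adjusted p = 0.000699), rank 1 of 6918 regions with 0.520% called higher. Without its replicate 1 the adjusted p was 0.0805. The pool held 606, 1014, 45, 27, 526 and 997 reads against the same controls, 0.132% to 0.985% of listed reads. Its log2 difference of 5.25 (SE 0.52, n = 6; adjusted p = 0.000328) was the lowest of the 5 sites in the pool, at rank 6.

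Over the target windows, 13 of 15 were called higher, 3 of 5 for the first guides, 5 of 5 for the second guides and 5 of 5 for the pool. For sgHS2-sg2 and sgHS3-sg2, 2 of the second guides, the call compares 1 library with the spread of the sgGal4 libraries. The median log2 difference was 7.33, and the medians over all regions of the same tables lay between -0.94 and 0.58. None of the 18 windows was called lower. Among all regions the percentage called lower was 18.5 for sgHS1, 9.76 for sgHS3, 11.9 for sgHS1-sg2, 13.5 for sgHS2-sg2, 31.1 for sgHS3-sg2, 21.9 for sgHS4-sg2, 19.2 for sgHS5-sg2 and 12.8 for sgHBG, and 0 for sgHS2, sgHS4, sgHS5 and the pool. In each of the 15 every guide library exceeded every sgGal4 library. An exact two-sided permutation test over the libraries gave p = 0.00476 at each of the 5 pool windows and 0.00794 for sgHS2, or 0.0171 and 0.0238 after Benjamini-Hochberg adjustment over the 18 windows. For sgHS3 and sgHS5 it gave 0.0286 (0.0643 adjusted). With 2 guide libraries p was 0.0667 and with 1 it was 0.2, and all these values are the smallest the numbers of libraries allow. The permutation counts every library as separate. That includes the pairs near counting noise, sgHS2 replicates 4 and 5, sgHS5 replicates 2 and 3, and pool replicates 1 and 2. Counting such a pair as 1 library would raise the smallest possible p.

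First and second guides were set side by side by share and not tested against each other, since the tables were normalised separately and the shares have different denominators. At HS1, HS2, HS3 and HS5 each share of the second guide fell within the range of the first guide's libraries. At HS4 they did not overlap, with 5.62% and 18.6% for sgHS4 and 2.15% and 0.698% for sgHS4-sg2. The denominators are the reads in different lists of regions, 10734 and 6242 long. The highest over the lowest share of a guide's libraries was 21.7 for sgHS1, 13.4 for sgHS2, 3.89 for sgHS3, 3.31 for sgHS4 and 10.2 for sgHS5. Among second guides with 2 libraries it was 1.41 at HS1, 3.08 at HS4 and 1.36 at HS5.

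**Figure D3:**
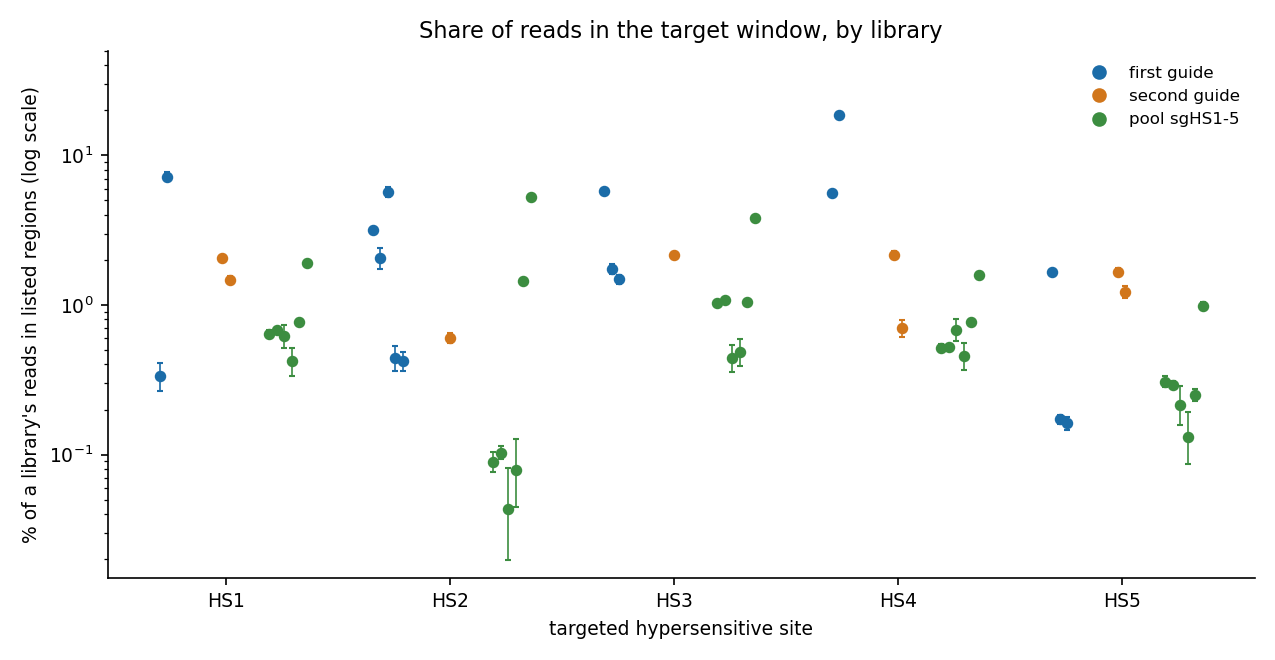
Share of each library's reads in listed regions that fell in the target window (percent, log axis), by site and class of guide, with 95% Clopper-Pearson intervals that cover counting error only. Libraries of 1 guide differ far beyond these intervals, as for sgHS1 (0.333% and 7.20%), and the pool spreads most at HS2 (0.0430% to 5.28%).

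The position of the pool windows tells which guide's window they match, although the labels do not say which guides the pool holds. The pool window began 23 bp from that of the first guide at HS1, 15 bp at HS2 and 15 bp at HS3, against 245, 564 and 325 bp from the second guide. At HS4 it was 7 bp from the second guide's window and 160 bp from the first. At HS5 both were near, at 17 and 1 bp. The authors' tags of the pool windows at HS1, HS2, HS3 and HS5 equal those of the first guides. At HS4 the pool tag is HS4.On-Target, against HS4-1.On-Target for the first guide and HS4-2.On-Target for the second. Whether a tag names a guide or only the site is not stated. In all, 16 of the 21 pairs of windows at the same site overlapped by at least 1 bp.

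Because the 5 sites were recovered from the same pool libraries, their reads can be compared within each library. The 5 windows together took 2.59%, 2.67%, 1.99%, 1.57%, 4.28% and 13.5% of the listed reads of replicates 1 to 6. Of these reads HS3 held 30.9% ± 7.77 (SD, n = 6), HS1 23.3% ± 6.17, HS4 22.0% ± 8.11, HS2 14.6% ± 17.1 and HS5 9.18% ± 2.38. HS3, HS1 and HS4, neighbours in this order, overlapped in their spread between libraries. Within libraries HS3 held more than HS1 and HS4 in every replicate except replicate 3. There it held 22.06%, against 30.94% at HS1 and 34.05% at HS4. HS5 held less than each of HS1, HS3 and HS4 in every one of the 6 replicates. The order of the sites was not tested. HS2 held 3.45%, 3.86%, 2.16% and 4.98% in replicates 1 to 4, below HS5 in each, and 34.0% and 39.0% in replicates 5 and 6, above all other sites. Without HS2 in the sum, HS1 held 27.0% ± 2.84, HS3 36.9% ± 8.41, HS4 25.4% ± 6.43 and HS5 10.7% ± 1.51, so the SD was smaller at HS1, HS4 and HS5 and larger at HS3.

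**Figure D4:**
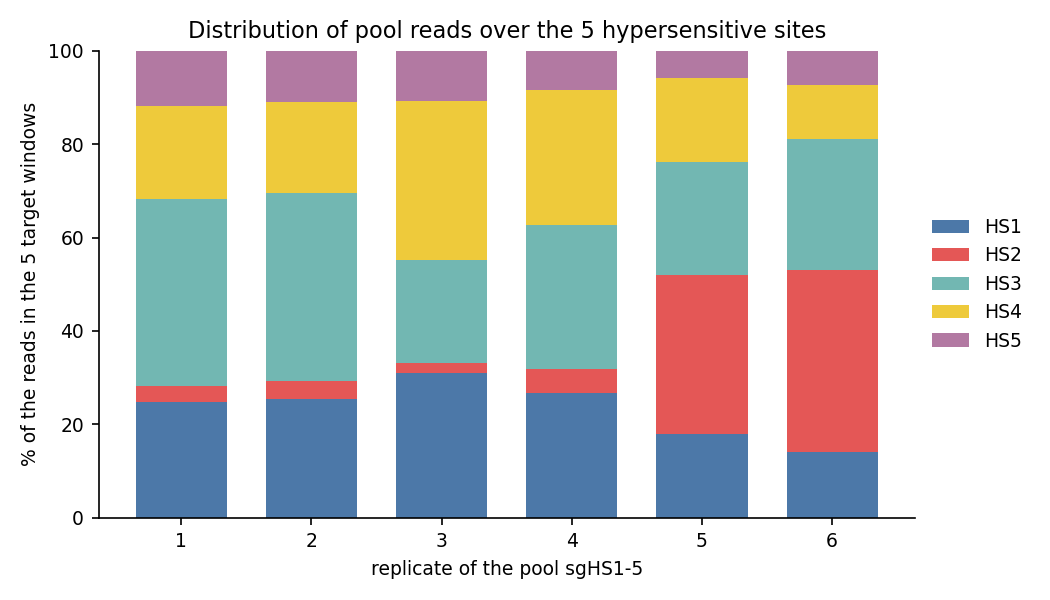
Distribution of the reads in the 5 target windows of the pool sgHS1-5 (percent, stacked to 100) in each of its 6 replicates. HS2 takes 34.0% and 39.0% in replicates 5 and 6 and no more than 4.98% in any other.

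Pool replicates 5 and 6 also stood apart over the listed regions, which include the 5 target windows. A difference outside the locus alone was not tested. The chi-square per degree of freedom over the listed regions was 1.05 to 1.48 between replicates 1 to 4, 2.81 to 6.89 between these and replicates 5 or 6, and 3.39 between 5 and 6. With replicates 5 and 6 left out, a setting chosen after seeing the data, the log2 differences were 7.11 at HS1, 4.84 at HS2, 7.24 at HS3, 7.47 at HS4 and 4.95 at HS5, with adjusted p of 0.00342, 0.0217, 0.00341, 0.0217 and 0.00342. All 5 calls held. Whether these libraries differ in preparation is not in the labels and was not tested.

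The windows that are not a guide's target were few and low. In the sgHS4 table a window over HS2 (5301848 to 5302147, 194 bp of it shared with the sgHS2 window) held 20 and 12 reads, against 0, 3, 0 and 0 in sgGal4. Both sgHS4 libraries were above all controls by reads and by level, at 0.00896% and 0.0190% of listed reads. As a log2 difference this was 2.07 (SE 0.70, n = 2), rank 239 of 10734, with an unadjusted p of 0.016 and an adjusted p of 0.244, and the exact permutation p was 0.133. The difference was 0.02 (adjusted p = 0.983) on reads with a pseudocount of 5 and 1.25 (0.563) with sgGal4 replicates 3 and 4 as the only controls, against 2.90 (0.0317) with replicates 1 and 2. For every 100 reads at HS4, HS2 held 0.160 and 0.102. The M value in the authors' deposited table is 1.88.

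The window just past the 3′ end of HBE1 (5288429 to 5288728) was listed for sgHS5, whose target lies on the other side of the locus control region. It held 3, 49 and 28 reads in replicates 1 to 3, against 1, 2, 0 and 2 in sgGal4. As shares of listed reads these were 0.00189%, 0.0113% and 0.0114%, against 0.00108%, 0.00118%, 0% and 0.0108% in sgGal4. Replicates 2 and 3, the deeper libraries with the lower share at HS5, were thus close to sgGal4 replicate 4, and replicate 1 was close to sgGal4 replicates 1 and 2. The resulting log2 difference was 2.02 (SE 1.05, n = 3; adjusted p = 0.385), rank 1063 of 16655, and the exact permutation p was 0.114. Set against 100 reads at HS5 in the same library, the window held 0.114 in replicate 1, 6.58 in replicate 2 and 7.02 in replicate 3. It passed in 1 of 17 alternative settings, that with sgGal4 replicates 1 and 2 as the only controls (3.63; adjusted p = 0.00803), and its difference turned to -0.44 on reads with a pseudocount of 5.

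The sgHBG table, whose guide targets the fetal gamma-globin promoters, listed a window over HS5 (5312517 to 5312816). It held 9, 5, 15 and 15 reads in the 4 guide libraries and 6, 11, 2 and 2 in sgGal4. The groups overlapped, the log2 difference was 0.46 (SE 0.48, n = 4; adjusted p = 0.504), rank 2192 of 6808 regions with 4.94% called higher, and the exact permutation p was 0.286. Thus 0 of the 3 windows that are not a target were called higher by limma, and 1 of them (HS2 for sgHS4) had an unadjusted p below 0.05, as did 582 of the 10734 regions of that table in the same direction.

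The sgGal4 libraries give the level of the sites without a guide to them. In the pool table the 4 libraries together held 5 reads at HS1 (95% Poisson interval 1.62 to 11.7), 5 at HS2, 7 at HS3 (2.81 to 14.4), 4 at HS4 (1.09 to 10.2) and 21 at HS5 (13.0 to 32.1). By library the reads at HS5 were 7, 13, 1 and 0, so its lead came from the deep replicates 1 and 2. In the shallow replicates 3 and 4 HS5 did not lead: HS4 held 3 and 1 reads and HS1 held 1 and 1. The intervals cover counting error only and no order of the sites is read from the sums. The HS5 windows of the other 3 tables held 19 to 21, largely the same reads, as they overlap. These controls are shared by all tables.

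The rest of the beta-globin cluster, from 3'HS1 to the gamma-globin genes HBG1 and HBG2, had 31 windows over the 17 tables. Of its 8 target windows 7 were called higher, and of the 23 others limma called 0 higher and 3 lower. For the 5 tables without a window at the locus control region, the percentage of all regions called higher was 4.24 for sgHBB, 0.517 for sgHBB-sg2, 0.926 for sgHBG-sg2, 9.45 for sgHBD-1kb and 0.0187 for sg3'HS1, and that called lower was 37.0, 29.0, 22.4, 18.7 and 0. A window between the gamma-globin genes (5273371 to 5273670) was listed in 16 tables, among them those of sgHS1 to sgHS4, the 5 second guides and the pool, and the sgHS5 table listed 5273352 to 5273651. Its log2 difference in the 16 tables was between -2.71 and -0.02. The sgHS4 table also listed the HBD-1kb position (5256823 to 5257122), with 53 and 1 reads against 4, 1, 0 and 1 in sgGal4, a difference of 1.42 (SE 0.87, n = 2; adjusted p = 0.418).

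Likeness of pattern was described in the pool table as Pearson's r of the log2 level over its 10 library columns, 6 pool and 4 sgGal4, which all regions share. The 2 groups differ widely at these sites, and r contains that difference. Among the sites r was 0.991 between HS1 and HS3 and 0.989 between HS1 and HS4, and 0.888 to 0.921 between HS2 and the others. It was 0.921 between HS4 and HS5 as well, so a lower r was not particular to HS2. Outside the cluster the regions most like each site are named by the nearest gene start. These starts lay between 404 bp (ABCC5) and 550474 bp (GRM8) away, so a name gives a position only. The regions were DPH6, ABCC5 and C9orf78 for HS1 (0.979, 0.974 and 0.968) and GRM8, PARK7 and SRCIN1 for HS2 (0.982, 0.969 and 0.968). For HS3 they were NYAP1, H2BC13 and ADGRG6 (0.979, 0.970 and 0.968). For HS4 they were DPH6, ZBTB43 and BTG2 (0.989, 0.987 and 0.977), and for HS5 H2BC13, PINX1 and PLXNA2 (0.965, 0.964 and 0.963).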

How the data were processed

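The submitters' processing notes name Bowtie 1.0.0, Picard and the build hg19; reads with 1 place in the genome were kept, per the labels' protocols. Region caller and normalisation method: not given in the sources used here. The authors deposited log2 levels per library for the regions of each table, with their log2 ratio M and mean A; the headers state no unit. Recomputed from linear means of guide and sgGal4 libraries, M differed from the deposited value by at most 1.39e-08.

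In each column, levels are linear in the log2 of whole numbers (slope 0.596 to 1.38; 100% of values whole within 0.01, or 0.01% where larger). The whole number less 1 was taken as reads, which the headers do not state; in 4588 regions found in 2 or more tables, sgGal4 reads differed in 0. Guide libraries held 7127 to 432553 such reads in listed regions, which is not their depth. Intervals (95%) cover counting error only.

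Each table was fitted alone with limma 3.58.1 (R 4.3.3), guide against its 4 sgGal4 libraries, on all its regions, with empirical Bayes variances without trend and Benjamini-Hochberg adjustment. The fit was also run on simulated normal noise with the fitted spread, which does not reproduce low read counts. No result here rests on that run. Python 3.11.15 gave exact permutation tests and, from GRCh37 and GENCODE 44 lifted to it, sequences and genes. A window belongs to a site within 1500 bp of its nominal position. The window rule named HBE1 windows for likeness; with none listed, the 5 pool windows were used. Second-guide sequences were added to those the rule names; the sequence of HS1 is not reported here. Unused value columns numbered 0. The members and lists were chosen with earlier results of these data known. The label of sgHBG-sg2 points to the table of sgHBG; column names were followed.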

Additional observations from a re-analysis of the deposited data

How the results depend on the processing

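Of 305 values of single windows under alternatives, 260 kept their direction and side of the threshold, 25 lost and 17 gained a call, and 3 changed sign. Among the 260 are 18 that could not change, 1 per window. Their setting kept the main fit and only added a log2 difference limit of 2, which every called window exceeded. It is also counted among the alternative settings given for single windows above. None of the 256 values of target windows fell below sgGal4, the lowest being 3.70. The 3 that changed sign were uncalled windows with few reads: the one beyond HBE1 for sgHS5 (-0.44 with a pseudocount of 5 reads) and HS5 for sgHBG (-0.383 with that pseudocount and -0.168 with sgGal4 replicates 3 and 4 as the only controls). Target calls of the first guides rose from 3 to 5 on scaled reads with a pseudocount of 1 or 5, with column medians subtracted and with a variance trend. Leaving out 1 library at a time gave 2 to 4 for the first guides, 2 to 5 for the second guides and 4 to 5 for the pool. In these counts a guide that could not be refitted kept its main call. The 2 for the second guides, without replicate 1, are such carried-over calls, of sgHS2-sg2 and sgHS3-sg2, and not a test. The sgHS1-sg2, sgHS4-sg2 and sgHS5-sg2 fits were then left with 1 library, at log2 differences of 7.75, 5.78 and 5.85. Calls of windows that are not a target rose from 0 to 2 for the first guides with sgGal4 replicates 1 and 2 as the only controls. The cause of these changes was not tested. Shared windows numbered 12 rather than 16 when an overlap of 150 bp was asked for. Averaging replicates near counting noise, chosen after seeing the data, ended the call of HS2 in the pool (adjusted p = 0.0883).

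Whether equal replicate numbers pair guide and sgGal4 libraries is not settled. In 0 of 5 tables with 3 or more shared numbers was every correlation of same-numbered deviations above 0.1 (range -0.0641 to 0.125). In 0 of them did every library correlate best with its own number, but low correlations cannot exclude a pairing. Pool replicates 1 to 4 held 196951, 348211, 20918 and 20447 listed reads. In the same table sgGal4 replicates 1 to 4 held 88378, 163456, 18353 and 18413, high and low at the same numbers. Such a match was absent for sgHS2 (36431, 7127, 11326 and 24611) and sgHBG (67063, 17857, 58827 and 106873). With the replicate block, calls of windows that are not a target for the first guides went from 0 to 1 (HS2 for sgHS4, 2.90, adjusted p = 0.0294). HS4 for sgHS4 gained its call (11.53, 0.0014), and HS1 for sgHS1 (0.105) and HS2 in the pool (4.84, 0.0783) lost theirs. Libraries without a same-numbered partner add nothing to these differences. Those of sgHS4 and sgHS1 equal the differences with sgGal4 replicates 1 and 2 as the only controls. That of the pool equals the difference without pool replicates 5 and 6. Pairing was thus not tested apart from the loss of these libraries. No window that is not a target was listed for the second guides or the pool, so those results have no value. Few control reads, 1 to 21 in sum per window, limit how well the size of a difference is known.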
